A study of Homo sapiens with 30 samples.

Results

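SUGP1 E554K cells were compared with control cells, both kept without a splicing inhibitor, in 6 of the 30 RNA-seq libraries of a study of spliceosome mutations linked to resistance to pladienolide B (PB), a small molecule that binds the SF3B1 subunit of the U2 snRNP. All 6 libraries came from eHAP FNLS, a human line related to HAP1 that carries the base editor FNLS, and all 6 cultures received the solvent DMSO for 3 h. The mutant group held the clones A08_2.11, A08_2.16 and A08_A03, called clones 1, 2 and 3 below, which are 3 independent monoclonal lines made with sgRNA SUGP1_238. The control group held 3 replicates of 1 eHAP FNLS line that had received a non-targeting sgRNA, so the mutant spread is between clones and the control spread is between cultures of 1 line. Libraries outside the 6 served for reference: the same clones and control line after 3 h in 2 nM PB, and 9 DMSO libraries of other mutant clones (PHF5A 2xTL, SF3B1 T1080I and SUGP1 G603N, 3 clones each).

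SUGP1 is a splicing factor with a G-patch, a glycine-rich motif through which such proteins bind and switch on DEAH-box RNA helicases. It works with the helicase DHX15 and with SF3B1, the protein that holds the intron branch point, when the spliceosome chooses a 3′ splice site. Loss of SUGP1 is known for use of cryptic 3′ splice sites, a change in which exons are joined that need not alter how much RNA a gene makes. The counts used here are per gene and do not resolve splice sites.

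The codon that gives the allele its name is shown with the codon of the other SUGP1 allele of the study, because they lie close together in 1 gene. Each run holds 63 bases of the coding strand of transcript ENST00000247001.9 (GENCODE release 29, build hg38, minus strand of chromosome 19), 5′ to 3′, with the named codon in capitals.
SUGP1 E554K codon: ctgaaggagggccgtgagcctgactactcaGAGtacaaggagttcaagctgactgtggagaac
SUGP1 G603N codon: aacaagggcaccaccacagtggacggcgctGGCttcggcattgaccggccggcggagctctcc
The E554K codon is GAG, a glutamate codon, in exon 12 of 14 at chr19:19277853-19277855. The G603N codon is GGC, a glycine codon, in exon 13 at chr19:19277049-19277051, in a protein of 645 residues. These are reference sequences, and the edited bases themselves were not read from the libraries here.

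Total estimated counts, in units of 1000000, were 48.2, 47.5 and 75.0 in E554K clones 1, 2 and 3 and 40.5, 52.3 and 44.8 in the control libraries. Clone 3 stood apart in several measures of the library. Genes of the mitochondrial genome took 15.02% of its counts, against 10.6 to 11.3% in the other 5 libraries. The genes of 9028 or more bases stood below those of at most 2822 bases in clone 3, relative to control, with a gap between the medians of -0.40 (log2), against -0.21 to 0.14 in the other 5. Control replicate 3 had a gap of 0.41 (log2) between genes of at least 57.4% GC and genes of at most 40.7% GC, against -0.26 and -0.15 in control replicates 1 and 2 and 0.03, 0.31 and 0.39 in the clones. The part of length, GC content or mitochondrial share in the differences below was not tested. HAP1-related lines descend from a leukaemia but grow attached, and 15 of 18 haematopoietic markers were under 1 CPM (a count per 1000000 counts) in all 6 libraries; the pan-leukocyte gene PTPRC reached at most 0.15 CPM. In bulk libraries such as these, fewer cells of a type and less RNA per cell cannot be told apart.

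The main comparison asked which genes differ in RNA level between SUGP1 E554K and control cells without drug. None of 29091 tested genes passed an adjusted p of 0.05 in edgeR's quasi-likelihood test (0% called), and 960 (3.3%) had an unadjusted p under 0.05. DESeq2 called 2 genes on the same counts, ZNF467 and DSC2. The typical precision was moderate: the median SE of the log2 difference was 0.17 over genes of at least 4 CPM. The test used the spread within all 5 DMSO genotypes, and that spread was wide between clones of the SUGP1 alleles. The median SD of log2 CPM was 0.22 among E554K clones and 0.23 among G603N clones, against 0.17 among the control replicates and 0.13 among the clones of PHF5A 2xTL and of SF3B1 T1080I. In 2449 genes (8.42%) the 3 clones and the 3 control replicates did not overlap, with the clones higher in 1184 (4.07%) and lower in 1265 (4.35%); among genes of at least 4 CPM the share apart was 8.06%.

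The edited gene came first. SUGP1 itself stood at 63.7, 56.5 and 66.2 CPM in clones 1 to 3 and at 40.1, 42.1 and 62.1 CPM in the control replicates. Control replicate 3 fell inside the range of the clones, while the other 2 controls lay below it. The log2 difference was 0.37 ± 0.14 (SE; edgeR adjusted p = 1), and without control replicate 3 it was 0.60 (adjusted p = 0.868). That was the highest value of 14 alternative fits, which ranged from 0.25 to 0.60. In the PB libraries of the same cells the groups did not overlap, with 57.0 to 66.5 CPM in the clones and 44.2 to 49.5 CPM in control (log2 difference 0.40 ± 0.12, edgeR adjusted p = 0.773). SUGP1 overlaps the gene MAU2, and no source used here says whether counting took strand into account, so reads of the pair may be shared. Each clone thus had more SUGP1 RNA than control replicates 1 and 2, which does not test the protein.

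DHX15, the helicase that SUGP1 works with, stood at 414, 389 and 288 CPM in the clones and at 496, 466 and 471 CPM in control. The groups did not overlap and clone 3 was the lowest (log2 difference -0.39 ± 0.18, edgeR adjusted p = 1). In PB the log2 difference was -0.40 ± 0.16 and the groups again did not overlap. The 9 other mutant clones ranged from 333 to 633 CPM in DMSO. Their median of 350 CPM lay below clones 1 and 2 and below every control replicate, so a low level was not particular to E554K. Against the mean of the other 3 mutant genotypes the log2 difference of E554K was -0.09 ± 0.15. DHX15 lies at chr4:24517441-24584550, inside a stretch of the short arm of chromosome 4 whose genes were low together in these clones, as described below; the part of that stretch in the DHX15 value was not tested. SF3B1 stood at 476, 437 and 374 CPM in the clones and at 460, 433 and 413 CPM in control, a log2 difference of -0.02 ± 0.12 that changed sign when clone 3 (0.066) or control replicate 1 (0.020) was left out. PHF5A, a small SF3b subunit next to SF3B1, gave 0.13 ± 0.12 with overlapping groups.

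**Figure D1:**
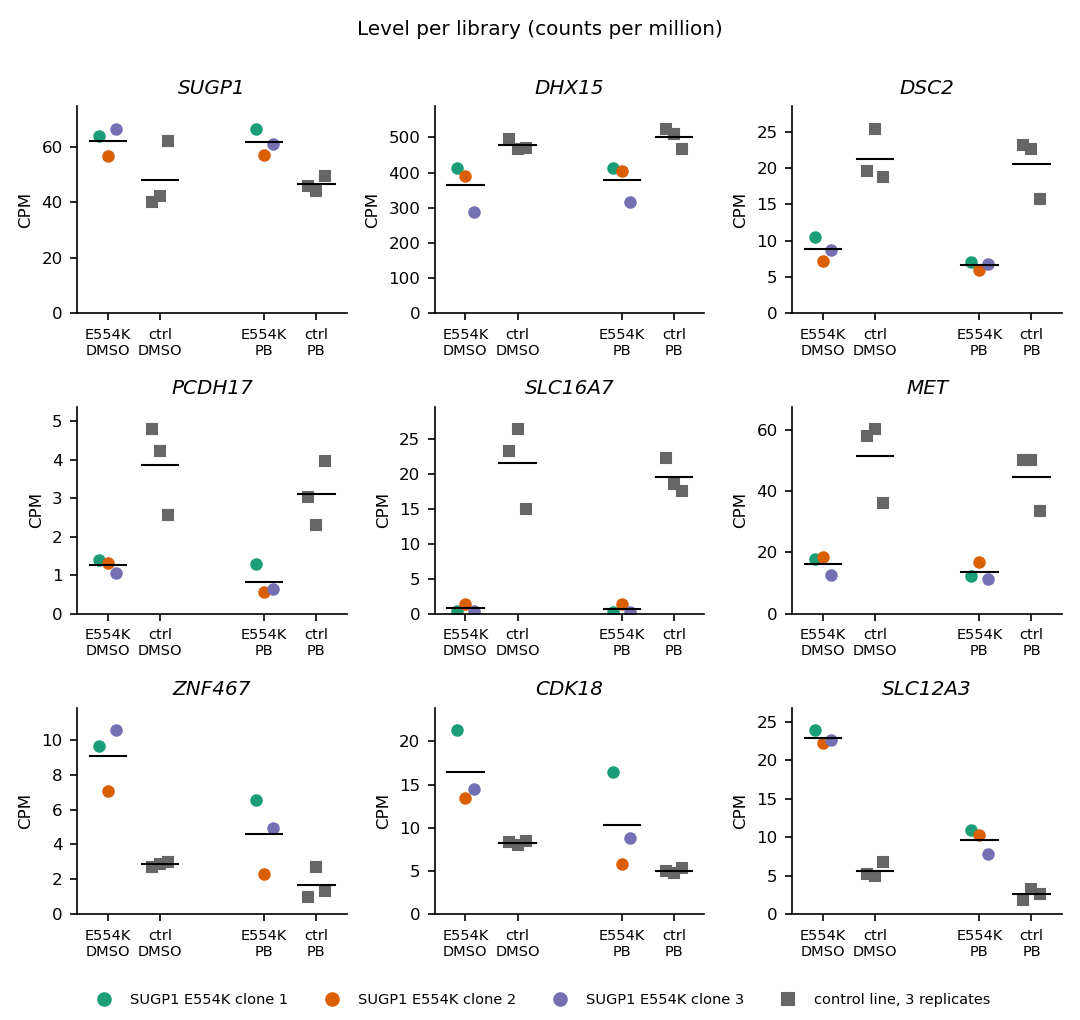
Level of 9 genes in each library (y axis, CPM, from 0), with the 3 SUGP1 E554K clones as coloured circles, the 3 control replicates as grey squares and the group mean as a line, in DMSO (left of each panel) and PB (right). DSC2, PCDH17, SLC16A7 and MET are low in every clone under both treatments, ZNF467, CDK18 and SLC12A3 are high in every clone in DMSO, and the third control replicate of SUGP1 lies among the clones in DMSO.

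DSC2, which encodes the desmosomal cadherin desmocollin-2, had the lowest p of any gene. Its level was 10.5, 7.24 and 8.70 CPM in clones 1 to 3 and 19.6, 25.5 and 18.7 CPM in control. Every clone lay below every control replicate (log2 difference -1.27 ± 0.24, unadjusted p = 6.1e-05, edgeR adjusted p = 1). In PB the clones gave 7.07, 5.98 and 6.81 CPM and the controls 23.2, 22.6 and 15.8 CPM, a log2 difference of -1.63 ± 0.25 (edgeR adjusted p = 0.132). DSC2 lies at chr18:31058840-31102522, where a stretch of 40 genes had a median of -0.34 in clone 3, against -0.01 and -0.17 in clones 1 and 2. The 9 other mutant clones ranged from 9.70 to 21.6 CPM.

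PCDH17, a protocadherin of cell contacts, and CXorf38 were the other protein-coding genes with a low p whose neighbours in the annotation do not overlap them. PCDH17 stood at 1.39, 1.32 and 1.06 CPM in the clones and at 4.79, 4.22 and 2.57 CPM in control (log2 difference -1.62 ± 0.36, edgeR adjusted p = 1), and at -1.89 ± 0.38 in PB. CXorf38 was lower by a smaller amount, with 13.6 to 16.4 CPM in the clones and 21.1 to 23.9 CPM in control (log2 difference -0.56 ± 0.14). In PB the CXorf38 groups overlapped and the log2 difference was -0.17 ± 0.16. CCDC141 was at or under 0.67 CPM in the clones and at 1.74 to 2.01 CPM in control, and it overlaps TTN. The unnamed transcript ENSG00000280247 had no counts in the clones and at most 0.36 CPM in control, within the gene YJU2.

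ZNF467, a zinc-finger gene, was the protein-coding gene with the lowest p among those higher in the clones. It stood at 9.64, 7.05 and 10.6 CPM in the clones and at 2.69, 2.86 and 3.02 CPM in control (log2 difference 1.67 ± 0.36, edgeR adjusted p = 1). The lowest clone was above the highest control, and also above the highest of the 9 other mutant clones, which ranged from 0.98 to 6.35 CPM. In PB the ZNF467 groups overlapped, with 6.57, 2.33 and 4.97 CPM in the clones and 0.99, 2.68 and 1.32 CPM in control. CDK18, a cyclin-dependent kinase of the PCTAIRE type, stood at 21.4, 13.5 and 14.5 CPM in the clones and at 8.35, 7.98 and 8.43 CPM in control (log2 difference 0.99 ± 0.25), and its groups did not overlap in PB either (log2 difference 1.04 ± 0.40). DLX5, a homeobox transcription factor, stood at 41.3, 37.1 and 48.2 CPM in the clones and at 25.9, 24.3 and 29.8 CPM in control, with groups apart under both treatments (log2 differences 0.66 ± 0.15 and 0.77 ± 0.21). Against the 9 other clones DLX5 did not stand out, since these ranged from 29.2 to 62.7 CPM. The antisense transcript PDCD4-AS1 reached 1.24 CPM at most, and ENSG00000264860 0.34 CPM at most.

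Larger differences were also present. Of 12032 genes of at least 4 CPM, 58 (0.482%) differed at least 2-fold with the 3 clones entirely on 1 side of the 3 controls; 38 were lower and 20 were higher. The genes named from this set in the following paragraphs were chosen after their values were seen, and each had an edgeR adjusted p of 1. All 58 had the same direction in the PB libraries, where 46 had groups apart and 41 were again at least 2-fold different with groups apart. These PB libraries come from the same clones, so they repeat the measurement of each clone and add no clone. The count rose to 77 without clone 1, 97 without clone 2, 83 without clone 3 and 75 without control replicate 3. Smaller groups are easier to find apart, so a rise is partly built in and does not show dependence on a given library. Of the 58, 1 (ZNF467) lay apart from all 9 other mutant clones, and for 1 (GREB1, an oestrogen-responsive gene) all 9 other clones lay on the same side of control as E554K.

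**Figure D2:**
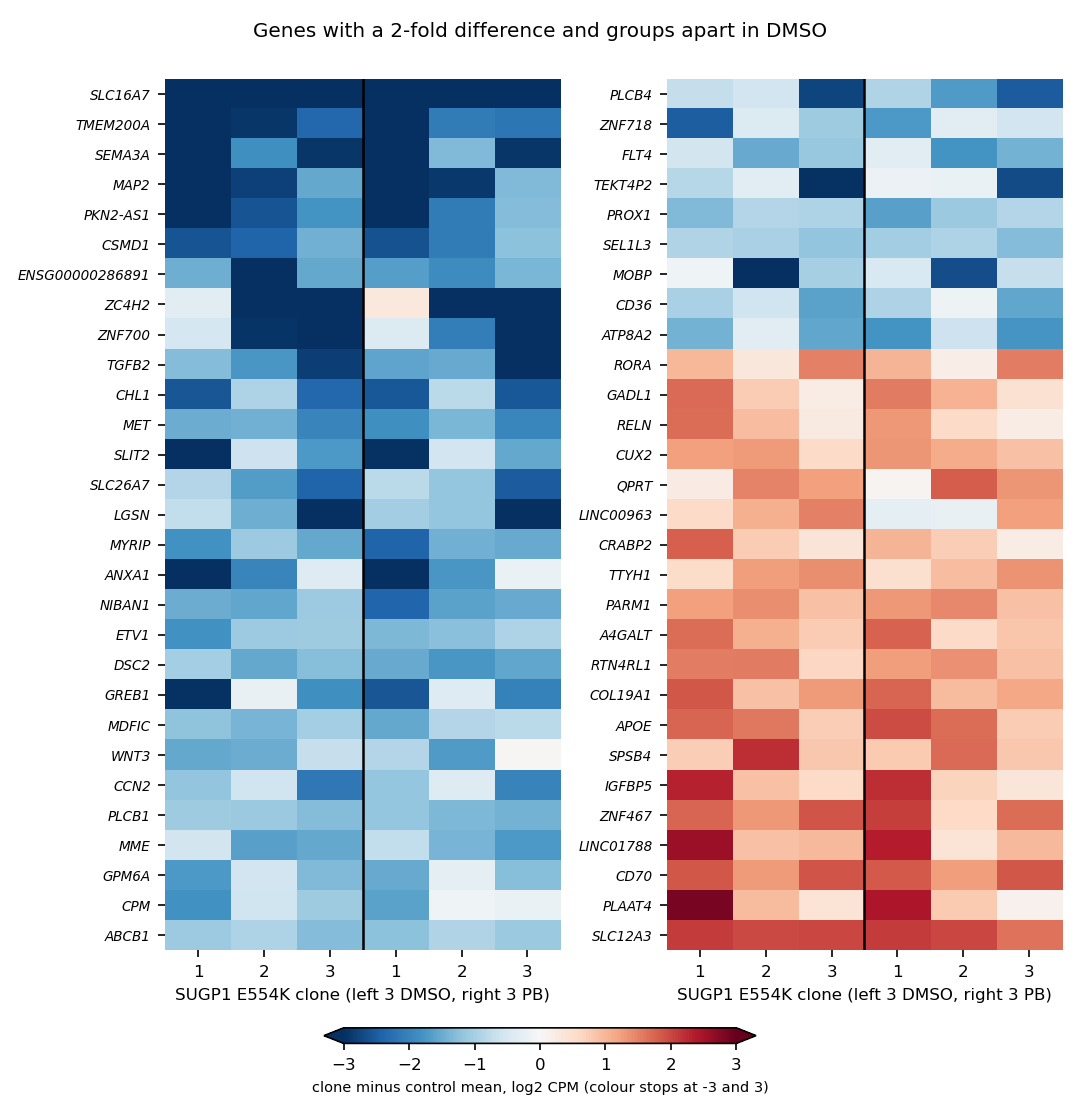
Difference of each SUGP1 E554K clone from the control mean (colour, log2 CPM, blue lower and red higher, colour stopping at -3 and 3) for the 58 genes with a 2-fold difference and groups apart in DMSO, ordered by the fitted difference. The left 3 columns of each block are clones 1 to 3 in DMSO and the right 3 the same clones in PB; all 58 keep the direction of the fitted difference in PB, and SLC16A7 is low in every clone while ZC4H2 is low in clones 2 and 3.

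The widest gap among the 58 genes was in SLC16A7, the monocarboxylate transporter MCT2. It stood at 0.43, 1.44 and 0.37 CPM in the clones and at 23.3, 26.4 and 14.9 CPM in control (log2 difference -4.88 ± 1.35). It was close to silent in all 3 clones, and in PB it stood at 0.24 to 1.39 CPM against 17.5 to 22.3 CPM. Among the 9 other mutant clones it ranged from 0.52 to 47.5 CPM, so a level near 0 was not found in E554K clones alone. SLC12A3, the thiazide-sensitive sodium chloride cotransporter, was higher at 24.0, 22.2 and 22.7 CPM, against 5.28, 4.99 and 6.72 CPM in control (log2 difference 2.02 ± 0.84). ABCB1, the multidrug efflux pump P-glycoprotein, stood at 30.5, 34.2 and 26.5 CPM in the clones and at 67.1, 65.6 and 63.5 CPM in control (log2 difference -1.11 ± 0.42). The clones of ABCB1 sat within a narrow range, as did the controls. SLC26A7, an anion exchanger, and CD36, a fatty acid receptor, were lower too, with log2 differences of -1.54 ± 0.50 and -1.01 ± 0.49. In PB the CD36 groups overlapped.

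SEMA3A, MAP2 and SLIT2 were among the 38 lower genes, and MAP2 also belongs to the neural marker list, whose median was -0.02. SEMA3A, a secreted semaphorin, stood at 2.61, 8.03 and 3.83 CPM in the clones and at 32.0, 31.4 and 24.2 CPM in control (log2 difference -2.60 ± 1.05). MAP2, a dendritic microtubule protein, was at 1.41, 4.60 and 11.3 CPM in the clones and at 33.9, 31.1 and 32.7 CPM in control (log2 difference -2.49 ± 0.98). SLIT2, a secreted guidance ligand, was at 2.24, 27.7 and 12.9 CPM in the clones and at 48.8, 44.6 and 35.6 CPM in control (log2 difference -1.59 ± 0.57). The controls were tight in all 3 genes while the clones spread several-fold, clone 1 being the lowest each time. CHL1, an adhesion molecule of the L1 family, and GPM6A, a neuronal membrane glycoprotein, were also lower (log2 differences -1.76 ± 0.67 and -1.13 ± 0.34). RELN, the secreted glycoprotein reelin, went the other way at 124, 73.7 and 46.3 CPM, against 44.8, 45.3 and 28.3 CPM in control; clone 3 exceeded the highest control by little, and in PB the groups overlapped.

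MET and TGFB2 were lower as well. MET, the receptor of hepatocyte growth factor, stood at 17.9, 18.4 and 12.7 CPM in the clones and at 57.9, 60.3 and 36.2 CPM in control (log2 difference -1.66 ± 0.43). TGFB2, a ligand of the transforming growth factor beta family, stood at 3.21, 2.34 and 1.09 CPM in the clones and at 8.23, 8.11 and 7.59 CPM in control (log2 difference -1.86 ± 0.54). Both had groups apart in PB as well, with log2 differences of -1.72 for MET and -2.01 for TGFB2. CCN2, a matricellular growth factor, WNT3, a Wnt ligand, and FLT4, a receptor of vascular growth factors, had log2 differences of -1.19, -1.19 and -1.05. In PB the WNT3 groups overlapped (log2 difference -0.75 ± 0.40), while those of CCN2 and FLT4 did not. CD70, a ligand of the tumour necrosis factor family, was higher at 33.4, 22.2 and 33.9 CPM, against 7.45, 11.1 and 9.05 CPM in control (log2 difference 1.69 ± 0.82). IGFBP5, a binding protein of insulin-like growth factors, was at 366, 135 and 109 CPM in the clones and at 69.2, 86.8 and 65.9 CPM in control (log2 difference 1.46 ± 0.62). Clone 1 was far above the others, and in PB the IGFBP5 groups overlapped.

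Some of the 58 genes encode transcription factors or lipid carriers. ETV1 of the ETS family and the homeobox gene PROX1 were lower, with log2 differences of -1.29 ± 0.47 and -1.04 ± 0.37. The nuclear receptor gene RORA was higher at 28.2, 17.7 and 40.4 CPM, against 15.9, 16.8 and 10.3 CPM in control. It lies on chromosome 15, which was raised in clone 3, and in PB the RORA groups overlapped. APOE, the lipid carrier apolipoprotein E, stood at 27.5, 24.4 and 13.7 CPM in the clones and at 6.68, 10.5 and 7.68 CPM in control (log2 difference 1.40 ± 0.68). CRABP2, which carries retinoic acid, and PARM1, a mucin-like membrane protein, were higher too, PARM1 by a log2 difference of 1.18. PARM1 and SEL1L3 were among 10 genes that passed when the fit held these 6 libraries only; the others were PKN2-AS1, TMEM200A, SEMA3A, MET, ABCB1, SLC16A7, SLC12A3 and CD70. That fit leaves out the spread of the 9 other clones, and these genes varied widely there: MET, for instance, ranged from 6.65 to 67.1 CPM.

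The same cells in PB served as a second set of libraries for the contrast of genotype. Again 0 of 28239 genes passed (0% called), and 1665 (5.9%) had an unadjusted p under 0.05. Groups did not overlap with the clones higher in 6.87% of genes and lower in 7.25%, and 0.481% of genes of at least 4 CPM were apart and at least 2-fold different. DSC2 was the 1 gene called there when all 30 libraries entered 1 fit (log2 difference -1.62, edgeR adjusted p = 0.0188), and DESeq2 called 9 genes in the PB comparison, DSC2 and PCDH17 among them. Fits of the PB libraries share no library with the DMSO fit, but they share the clones and the control line.

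A contrast of E554K with the mean of the other 3 mutant genotypes used no control library. It also gave 0 called genes of 29091 (0% called), with an unadjusted p under 0.05 in 1323 (4.55%). ZNF467 was 1.64 ± 0.26 higher (log2) in E554K (unadjusted p = 9.5e-06, edgeR adjusted p = 0.168), and CDK18 was 0.96 ± 0.19 higher (adjusted p = 0.482). CXorf38 gave -0.56 ± 0.12 (adjusted p = 0.57) and PCDH17 -1.29 ± 0.31 (adjusted p = 0.858). DSC2 gave -0.74 ± 0.20 against the other mutants, a smaller difference than against the control line. DESeq2 called 15 genes in this contrast, including ZNF467, CDK18, CXorf38, PCDH17, RELN and SLC16A7.

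The contrast of the SUGP1 alleles asked whether E554K and G603N clones differ, and again no gene of 29091 passed (0% called; 3.47% at an unadjusted p under 0.05). SUGP1 itself stood at 92.2, 88.7 and 86.9 CPM in the G603N clones, above the 56.5 to 66.2 CPM of the E554K clones without overlap (log2 difference -0.52 ± 0.14, unadjusted p = 0.0019, edgeR adjusted p = 1.00). Both alleles thus had SUGP1 RNA at or above most control replicates, and the G603N clones had more of it. DSC2 was 0.77 ± 0.24 lower (log2, value -0.77) in E554K than in G603N clones, and ZNF467 was 0.67 ± 0.35 higher. CDK18 and RELN hardly differed between the alleles, with log2 differences of 0.08 ± 0.24 and -0.14 ± 0.34. In the G603N clones CDK18 stood at 18.1, 10.4 and 18.2 CPM and RELN at 109, 82.8 and 76.5 CPM. Both contrasts share the E554K libraries with the main comparison and are not separate evidence about them.

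Gene lists for splicing, stress, growth and cell identity were then read against the same fit. No list of 24 had a called gene, and list medians ran from -0.38 to 0.77, beside a median of 0.00 over all tested genes. The 26 genes of SUGP1, DHX15 and other G-patch proteins had a median of -0.03; 0 were apart and higher and 2 were apart and lower, DHX15 and GPATCH8, beside 4.07% and 4.35% over all tested genes. The 25 genes of SF3b, the U2 snRNP and branch point recognition had a median of 0.04 and none was apart in either direction. The 27 genes known as targets of cryptic 3′ splice sites had a median of 0.01. Of these, 3 were apart and lower, beside 4.35% over all tested genes: TTI1, a kinase assembly factor, at 48.5, 49.9 and 43.6 CPM against 58.8, 54.6 and 54.0 CPM (log2 difference -0.24 ± 0.11), with CRNDE (-0.42) and DPH5 (-0.17). SR proteins (median -0.03), hnRNP proteins (0.03) and factors of nonsense-mediated decay with snoRNA host genes (0.02) lay as near to 0. All 3 clone medians lay inside the range of the control replicates for the G-patch, SF3b, SR and hnRNP lists. For the cryptic splice site targets clone 3 lay at -0.11, below the controls (-0.05 to 0.12) and the 9 other clones (-0.08 to 0.09). For the decay and host gene list clone 1 lay at 0.10 and clone 3 at -0.06, outside the controls (-0.05 to 0.06) on opposite sides, with clone 2 at their upper edge (0.06).

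**Figure D3:**
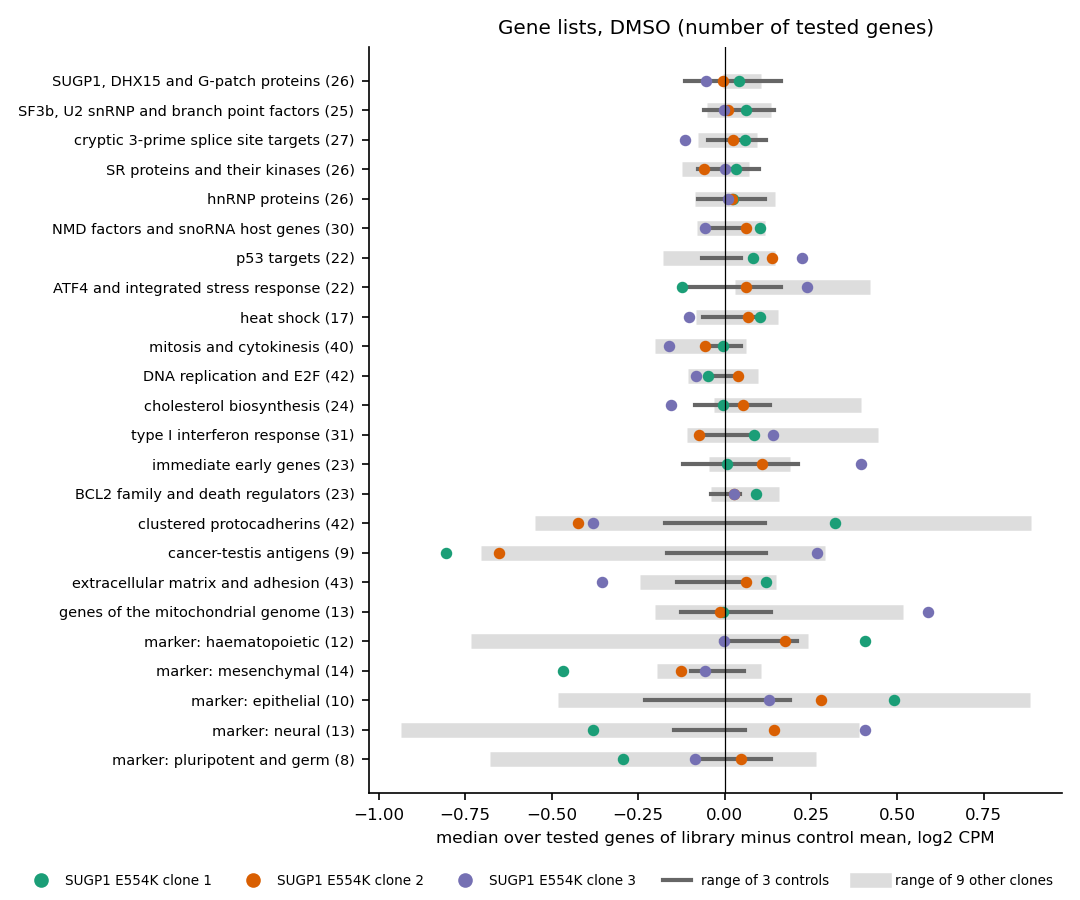
Median over the tested genes of each list of the difference from the control mean (x axis, log2 CPM), for the 3 SUGP1 E554K clones (circles), the range of the 3 control replicates (dark bars) and the range of 9 other mutant clones (pale bars), all in DMSO. The splicing lists lie between -0.11 and 0.10 in all clones, the p53 list lies above the controls in each clone, and clone 3 lies alone at 0.59 for the mitochondrial genome.

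The p53 targets were the 1 list in which every clone lay beyond the control range on the same side, at medians of 0.08, 0.14 and 0.22 against -0.06 to 0.05 in the control replicates. The 9 other mutant clones ranged from -0.18 to 0.15, so clones 1 and 2 lay inside their range. BTG2, an antiproliferative p53 target, stood at 60.0, 47.0 and 49.4 CPM in the clones and at 29.1, 34.4 and 32.9 CPM in control (log2 difference 0.70 ± 0.25, unadjusted p = 0.011, edgeR adjusted p = 1). CDKN1A, the cell cycle inhibitor p21, stood at 8.29, 5.40 and 5.91 CPM in the clones and at 2.88, 4.93 and 3.37 CPM in control (0.81 ± 0.41). These 2 of 22 genes were apart and higher, and none was apart and lower, beside 4.07% and 4.35% over all tested genes. HAP1-related lines are known to carry an impaired p53.

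Other stress and growth lists had medians from -0.05 to 0.21. Targets of ATF4 (22 genes) had a median of 0.05, with SLC7A11, the cystine transporter, at 45.7, 56.9 and 38.0 CPM in the clones and 79.4, 77.0 and 47.8 CPM in control (-0.54 ± 0.18, groups overlapping through control replicate 3). Heat shock genes (17) had a median of 0.02, cholesterol biosynthesis genes (24) 0.03 and DNA replication genes (42) -0.03. The 40 genes of mitosis had a median of -0.05; DLGAP5, a spindle protein, stood at 136, 120 and 108 CPM in the clones and at 157, 155 and 137 CPM in control (-0.30 ± 0.12). Immediate early genes had a median of 0.21 and clone 3 alone a median of 0.40, against 0.01 and 0.11 in clones 1 and 2. The 31 tested interferon genes had a median of 0.18 and clone medians of 0.09, -0.07 and 0.14, against -0.08 to 0.07 in the control replicates, with ISG15 at 4.92, 6.57 and 11.1 CPM in the clones against 4.16, 4.07 and 5.48 CPM. Genes of the mitochondrial genome had clone medians of 0.00, -0.01 and 0.59.

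Of 23 tested genes of the BCL2 family and death regulators, 5 were apart and higher and 3 were apart and lower, beside 4.07% and 4.35% over all tested genes. Their median was 0.03. BMF, a BH3-only protein that promotes death, stood at 12.8, 9.62 and 26.0 CPM in the clones and at 9.27, 7.72 and 7.28 CPM in control (log2 difference 1.00 ± 0.43), and BIK, of the same kind, at 3.21, 2.64 and 3.23 CPM, above all 3 controls (0.72 ± 0.29). BMF is on chromosome 15, where clone 3 was raised, and clone 3 had its highest value. The protective gene BCL2L1 was higher (0.33 ± 0.17) and MCL1 was lower (-0.14 ± 0.11), both with groups apart. No member passed the edgeR test.

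Lists of adhesion and cell identity varied by clone. The 43 tested genes of matrix and adhesion had clone medians of 0.12, 0.06 and -0.36. Of these, 2 were apart and higher and 2 were apart and lower, beside 4.07% and 4.35% over all tested genes. The 2 genes given next were both lower, so they do not stand for the list. FN1, fibronectin, stood at 174, 157 and 86.3 CPM in the clones and at 207, 191 and 202 CPM in control (log2 difference -0.52 ± 0.30), and ITGB1, the beta-1 integrin, at 170, 174 and 108 CPM against 207, 206 and 186 CPM (-0.41 ± 0.16). Clustered protocadherins (42 tested) had clone medians of 0.32, -0.42 and -0.38, and cancer-testis antigens (9 tested) -0.81, -0.65 and 0.27. The 9 other clones ranged from -0.55 to 0.88 and from -0.70 to 0.29 for these 2 lists. Most members had low levels: 36 of 53 protocadherins and 26 of 30 cancer-testis antigens were under 1 CPM in all 6 libraries. The summed level of the epithelial markers was 51.6 to 155 CPM in the clones and 40.9 to 48.0 CPM in control; KRT8, a simple epithelial keratin, gave clone 1 69.8 CPM and the other 5 libraries at most 4.88 CPM, while the epithelial adhesion gene CDH1 was at most 0.62 CPM everywhere. Haematopoietic markers summed to 10.3 to 30.7 CPM in the clones and 23.2 to 27.2 CPM in control, mesenchymal ones to 569 to 716 and 712 to 772 CPM, neural ones to 96.6 to 171 and 134 to 148 CPM, and pluripotency and germ ones to 1655 to 2027 and 1510 to 2220 CPM. SOX2 and POU5F1, which are pluripotency factors, made up most of the last sum in every library. The list medians were 0.05, -0.16, -0.02 and -0.01 in that order, and 0.77 for the epithelial list. The epithelial medians per clone were 0.49, 0.28 and 0.13. They ranged from -0.23 to 0.19 in the control replicates and from -0.48 to 0.88 in the 9 other clones. Of the 13 epithelial genes, 7 were under 1 CPM in all 6 libraries, and in PB the list median was 0.15.

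Read clone by clone, whole chromosomes stood out. On chromosome 21 the median of 124 genes of at least 4 CPM was 0.73 above the control mean (log2) in clone 1, and -0.24 and -0.40 in clones 2 and 3. The 9 other mutant clones ranged from -0.30 to 0.76, so clones 1 and 2 lay inside their range, and against their median clone 2 was at -0.04. In clone 1, 107 of these genes (86.3%) lay above all 3 controls, and in clone 3, 88 (71.0%) lay below all 3. The nuclear speckle protein gene SON shows it, at 1358, 682 and 546 CPM in clones 1 to 3 and at 863, 867 and 721 CPM in control. APP, the amyloid precursor gene, stood at 1060.3, 475 and 345 CPM in the clones and at 582, 616 and 661 CPM in control. SOD1, the superoxide dismutase, stood at 418, 201 and 287 CPM in the clones and at 223, 238 and 312 CPM in control. The values recurred in PB, where the chromosome 21 medians were 0.65, -0.25 and -0.29. Among the 9 other clones, 3 had a chromosome 21 median above 0.3.

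On chromosome 15 clone 3 stood apart from clones 1 and 2. The median over 418 genes was 0.61 in clone 3, and -0.05 and -0.11 in clones 1 and 2, with 378 genes (90.4%) of clone 3 above all 3 controls. The ribosomal protein gene RPL4 stood at 1549, 1576 and 3114 CPM in clones 1 to 3 and at 1611, 1622 and 1828 CPM in control. PKM, pyruvate kinase, stood at 1090, 1245 and 2092 CPM in the clones and at 1108, 1109 and 1425 CPM in control. ANXA2, a membrane-binding annexin, stood at 577, 518 and 1195 CPM in the clones and at 520.0, 489 and 581 CPM in control. In PB clone 3 had a chromosome 15 median of 0.65. Among the 9 other clones 1, a G603N clone, had a chromosome 15 median above 0.3.

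**Figure D4:**
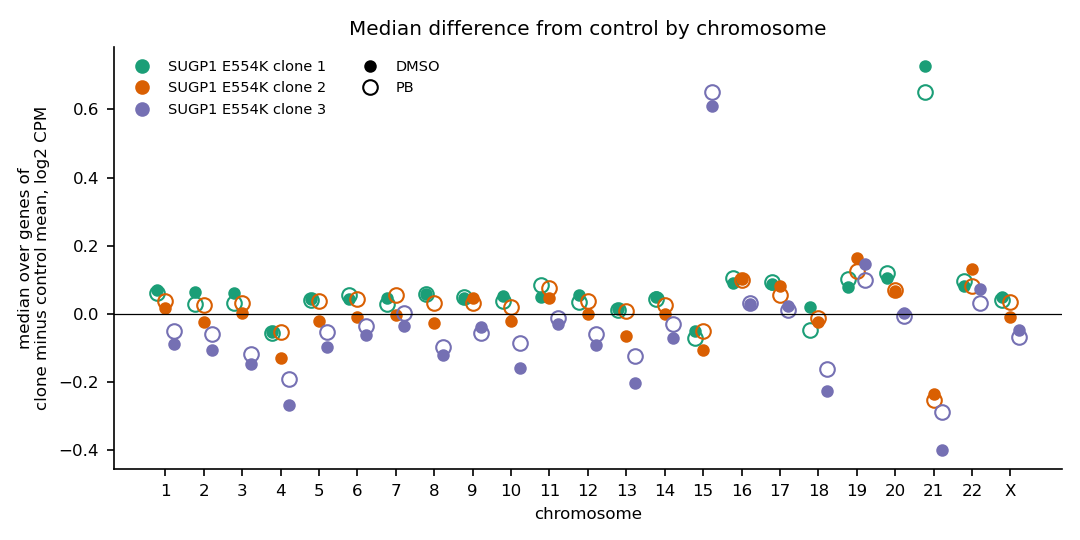
Median over genes of at least 4 CPM of the difference of each SUGP1 E554K clone from the control mean (y axis, log2 CPM) by chromosome (x axis), with filled circles for DMSO and open circles for PB. Chromosome 21 is above control in clone 1 (0.73) and below it in clones 2 and 3 (-0.24 and -0.40, clone 2 within the range of 9 other mutant clones), chromosome 15 is raised in clone 3, and the PB values fall near the DMSO values.

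Blocks of 40 neighbouring genes on other chromosomes also had medians more than 0.3 from the control mean, and 3 are given here. On the short arm of chromosome 18 the first 40 genes (chr18:109065-12929643) had a median of 0.59 in clone 2 in DMSO and 0.62 in PB, and -0.09 and -0.21 in clones 1 and 3 in DMSO; the 9 other clones ranged there from -0.27 to 0.75. MYL12B, a myosin light chain gene in this block, stood at 252, 459 and 291 CPM in the clones and at 289, 253 and 320 CPM in control. On the short arm of chromosome 4 the 40 genes at chr4:6781375-25863760, which include DHX15, SLIT2 and SEL1L3, had medians of -0.27, -0.35 and -0.59 in clones 1 to 3. The control replicates ranged there from -0.07 to 0.05 and the 9 other clones from -0.62 to 0.69. In PB the 3 clones gave -0.31, -0.32 and -0.57, so this block was low in all 3 clones under both treatments. Near the end of the long arm of chromosome 19 (chr19:55654146-58315663) clone 3 had a median of -0.36 in DMSO and -0.40 in PB, against 0.02 and -0.01 in clones 1 and 2 in DMSO, -0.08 to 0.05 in the control replicates and -0.07 to 0.28 in the 9 other clones. The number of DNA copies was not measured in these libraries; the labels state that ploidy was checked by flow cytometry.

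Single genes were also close to silent, or far above control, in 1 clone and not in others. Outside chromosomes 15 and 21, clone 1 had 67 genes at least 4-fold from the control mean and outside the control range (39 higher, 28 lower), clone 2 had 31 (2 higher, 29 lower) and clone 3 had 58 (8 higher, 50 lower). All of these kept their direction in PB, and all but 1, in clone 3, were at least 2-fold different there. Of them 45, 19 and 44 were past 4-fold in no other clone, and 2 were past it in all 3 clones on the same side, SLC16A7 and TMEM200A. The genes named next were chosen after their values were seen.

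In clone 1, KRT8 stood at 69.8 CPM and ESRG, a noncoding transcript of embryonic stem cells, at 86.8 CPM, against at most 3.90 CPM of ESRG in any other of the 6 libraries. PAX6, an eye and brain transcription factor, stood at 0.13 CPM in clone 1 and 7.17 CPM in clone 3, with clone 2 between them, against 6.68 to 8.77 CPM in control. In clone 2, FMN2, an actin-nucleating formin, was at 0.02 CPM, against 4.32 and 5.94 CPM in clones 1 and 3 and 3.92 to 5.51 CPM in control. The zinc-finger gene TSHZ3 was at 0.10 CPM in clone 2, against 10.9 and 7.90 CPM in the other clones. Clones 2 and 3 shared the near absence of FBXO25, an F-box gene, with 0.13 and 0.09 CPM against 35.1 CPM in clone 1 and 13.6 to 18.1 CPM in control. They also shared that of ZC4H2, at 0.19 and 0.11 CPM against 9.15 CPM in clone 1 and 10.9 to 12.3 CPM in control. Among the 9 other mutant clones the lowest levels of FMN2, TSHZ3, FBXO25 and ZC4H2 were 0.15, 0.28, 0.06 and 0.06 CPM in that order. Near absence of these genes was thus not found in E554K clones alone. In those other clones PAX6 was at least 1.40 CPM, while KRT8 and ESRG reached at most 19.4 and 11.6 CPM.

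In clone 3, NEFL, the neurofilament light chain gene, stood at 47.8 CPM, against 0.13 and 0.02 CPM in clones 1 and 2 and 2.66 to 3.03 CPM in control. MMRN1, a platelet and endothelial multimerin, stood at 7.38 CPM in clone 3 and at most 0.15 CPM in the other 5 libraries. CTSF, a lysosomal cathepsin, was at 0.54 CPM in clone 3, against 32.3 and 34.2 CPM in the other clones. ZNF100 was at 0.69 CPM in clone 3, against 27.9 and 25.8 CPM in clones 1 and 2. The zinc-finger genes ZNF441, ZNF700 and ZNF44, which lie in that order between chr19:11767000 and chr19:12294887, were at 0.33, 0.21 and 0.19 CPM in clone 3; ZNF700 was also low in clone 2 at 1.34 CPM. CTSF, ZNF100, ZNF441, ZNF700 and ZNF44 were each also lower in at least 1 of the 9 other mutant clones than in every control. Their lowest levels in those clones were 12.4, 0.15, 1.37, 0.05 and 0.68 CPM in that order, so CTSF was not close to silent there. NEFL and MMRN1 reached at most 3.07 and 0.27 CPM in those clones.

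**Figure D5:**
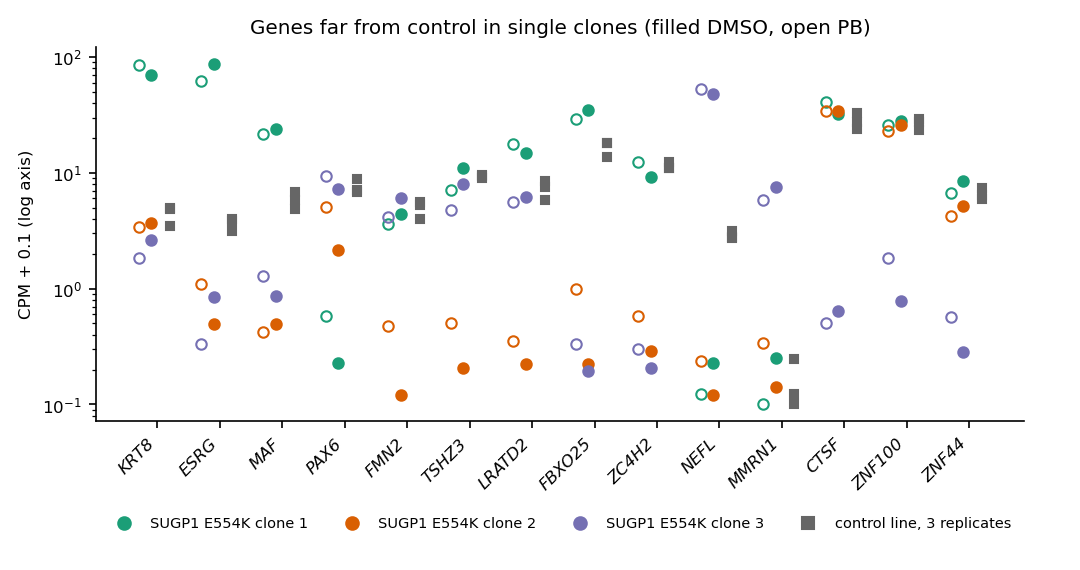
Level of 14 genes (y axis, CPM plus 0.1, log axis) in the 3 SUGP1 E554K clones in DMSO (filled circles) and PB (open circles) and in the 3 control replicates in DMSO (grey squares). Each gene has at least 1 clone far from control, such as KRT8 in clone 1, FMN2 in clone 2, NEFL in clone 3 and FBXO25 in clones 2 and 3, and the same clones stand out in PB.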

How the data were processed

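Poly(A)-selected RNA was sequenced as paired 150-base reads, per the labels' protocols. The authors deposited estimated counts per gene for 30 libraries; UMI-tools, STAR, SAMtools 1.10 and build hg38 stand in the submitters' processing notes. Counting program, annotation and strand setting: not given in the sources used here. In all, the table holds 61487 genes, of which 61369 carry a symbol, and 65.5% of its values above 0 are not whole; they were rounded. Positions came from GENCODE release 29 (58312 genes matched).

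The 15 DMSO libraries were fitted together in edgeR 4.0.16 (R 4.3.3; TMM, filterByExpr, glmQLFit and glmQLFTest, 1 mean per genotype, 10 residual degrees of freedom), with Benjamini-Hochberg adjustment over all tested genes and a threshold of 0.05. The 15 PB libraries had a fit of their own. SEs are the log2 difference divided by the root of F. CPM use TMM-scaled totals; differences per library use log2 CPM with a prior count of 2, and stretches hold 40 neighbouring genes of at least 4 CPM. Groups are apart when all clones lie on 1 side of all controls. The scripts were tested on simulated data. Genes named by rule were SUGP1, SF3B1, PHF5A, DHX15, the 5 of lowest p per direction and the member of lowest p of some of the 24 lists. Other genes named in the list and chromosome paragraphs were chosen with their values known, as were those marked so. Members and lists were chosen with earlier results of these data known. The labels give no batch. Same-numbered clones and controls share only a number. DESeq2 1.42.0, other scalings and filters, a replicate block and leaving out each library were alternatives. The p-values measure the spread between clones, and for control between cultures of 1 line.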

Additional observations from a re-analysis of the deposited data

How the results depend on the processing

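The count of called genes depended on the test. DESeq2 called 2 genes for E554K against control in DMSO, 9 in PB and 15 against the other mutants. Without the low-count filter edgeR called 145 in DMSO, 130 in PB, 190 against the other mutants and 75 against G603N. Of the 145, 144 were also tested with the filter and 107 reached 4 CPM; without the filter the estimated prior degrees of freedom were infinite, against 7.11 with it, so each gene's own spread had no weight, and KRT8, high in 1 clone, was called. With only the 6 libraries compared, 10 genes were called in DMSO and 5 in PB; with all 30, 1 in PB. Leaving out each library gave 0 calls against control and against the other mutants, and 0 to 2 against G603N. Leaving out each library, the number of genes with a 2-fold difference and groups apart ranged from 58 to 97 in DMSO. The range in PB was 55 to 96, and the highest counts came without clone 2. Smaller groups are easier to find apart, so part of any rise is built in. The other alternatives gave 57 to 63 in DMSO and 58 to 63 in PB. SF3B1 ranged from -0.12 to 0.066 in DMSO and from -0.12 to 0.026 in PB when each library was left out, and was above 0 without clone 3 in either treatment and without control replicate 1 in DMSO (0.020). A replicate block gave 0 calls in each comparison; same-numbered libraries had correlations of 0.09, -0.05 and 0.21 over 12030 genes, so the numbers were not taken as pairs. Against the median of the 9 other clones, chromosome 15 in clone 3 was 0.66, chromosome 21 in clones 1 to 3 was 0.88, -0.04 and -0.25, and chromosome 4 in clone 3 was -0.16; the cause was not tested.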

Other observations

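The profiles of the E554K clones were compared with each of the other DMSO libraries as deviations from the mean of the 15, over 12030 genes of at least 4 CPM. Clone 1 and a G603N clone, each the first of its genotype, had a Pearson correlation of 0.61 across genes, and clone 3 and the third G603N clone 0.59. Without chromosomes 15 and 21 the values were 0.60 and 0.54. The E554K clones had correlations of -0.05, -0.33 and -0.01 with each other. Genes are not independent replicates, and deviations from a shared mean lean below 0. Clones 1 of both genotypes share the raised chromosome 21 as clones 3 share the raised chromosome 15. Clone 3 of both had the largest length gaps (-0.40 and -0.24) and GC gaps (0.39 and 0.50) of their genotype. Clone 1 of both had like length gaps (0.14 and 0.15). These are values with no test.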
